A study of Mus musculus with 9 samples.

Results

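Transcripts of 10 cell-surface genes that are known from work on the ageing of haematopoietic stem cells were followed in 9 libraries of long-term haematopoietic stem cells (LT-HSCs) of the mouse. The genes were chosen by symbol, as surface genes named in that field, with earlier results of these data known. They are Selp, Jam2, Alcam, Cd9, Tm4sf1, Neo1, Gpr183, Cd38, Ptprk and Cd74, 10 of the 21939 genes in the deposited table, and all 10 passed the filter on low counts that left 15127 genes. LT-HSCs were sorted from bone marrow of C57BL/6 mice as lineage-negative, Sca1+, cKit+, CD34-, Flt3- cells, and their RNA was sequenced in bulk. The aged+Ri group held cells of mice over 80 weeks old incubated with 100 µM Rhosin (Ri), an inhibitor of the small GTPase RhoA. The aged group held cells of mice over 80 weeks old without Rhosin, and the young group held cells of mice aged 10 to 16 weeks without Rhosin. Each group had 3 libraries, and all 9, controls included, came from cells held for 16 h at 37 °C in a salt solution with 10% serum, 3% oxygen and 5% carbon dioxide, so none shows freshly isolated cells. The design calls the libraries biological replicates without saying how many mice each pools. No young group with Rhosin is among the libraries, and the labels name no vehicle for the other groups.

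The stem cell surface carries adhesion molecules, receptors and enzymes through which the cell is held in its bone marrow niche and senses soluble signals. Several platelet and adhesion molecules, P-selectin (Selp) among them, are widely used as transcript or protein markers of old haematopoietic stem cells. Abundance of a transcript is not abundance of protein at the surface, which RNA sequencing does not measure.

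Promoter windows are shown for 3 genes whose levels set the groups apart: Selp and Cd9 were higher in every aged library than in every young library, and Cd38 was higher in every aged library than in every library of both other groups. Each window runs from 250 bases before to 50 bases after the annotated start in RefSeq (build GRCm38.p6) and is written 5′ to 3′ on the strand of the gene. The Selp window is chr1:164115014-164115313 on the + strand, the Cd9 window chr6:125494711-125495010 on the - strand and the Cd38 window chr5:43868559-43868858 on the + strand. Capitals mark AGATAA, a sequence bound by GATA factors.
Selp: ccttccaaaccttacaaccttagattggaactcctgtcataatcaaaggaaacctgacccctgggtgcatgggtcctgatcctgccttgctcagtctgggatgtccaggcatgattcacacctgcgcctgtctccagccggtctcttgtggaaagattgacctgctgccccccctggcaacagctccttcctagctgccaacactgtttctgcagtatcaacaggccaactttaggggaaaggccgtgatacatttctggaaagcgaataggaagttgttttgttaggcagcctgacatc
Cd9: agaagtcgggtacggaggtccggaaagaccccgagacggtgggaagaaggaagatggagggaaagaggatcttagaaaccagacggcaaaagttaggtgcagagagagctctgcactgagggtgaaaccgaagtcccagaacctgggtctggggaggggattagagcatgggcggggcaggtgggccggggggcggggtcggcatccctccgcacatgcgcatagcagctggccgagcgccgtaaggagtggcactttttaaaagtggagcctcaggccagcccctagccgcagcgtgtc
Cd38: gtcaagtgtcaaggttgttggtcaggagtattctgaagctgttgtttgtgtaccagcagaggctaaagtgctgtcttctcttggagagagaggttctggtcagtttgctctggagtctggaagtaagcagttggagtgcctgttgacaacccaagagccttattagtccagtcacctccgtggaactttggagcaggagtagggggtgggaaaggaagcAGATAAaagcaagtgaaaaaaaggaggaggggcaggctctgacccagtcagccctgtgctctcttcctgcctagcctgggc
The windows differ in base composition. Cd9 has 61.33% G and C with 18 CpG dinucleotides, Selp has 51.67% with 4, and Cd38 has 51.67% with 1. Over 32851 promoters the medians are 52.67% and 7. Windows of 8 of the 10 genes were used, and their G and C content lay between 35.33% at Gpr183 and 82.67% at Neo1. The motifs AGATAA and TGATAA of GATA factors, CCGGAAGT of ETS factors, GGAATG of TEAD factors and TGAGTCA of AP-1 were searched on both strands, and TATAAA on the given strand only. AGATAA was found in the Cd38 window, with its first base at position -31 from the RefSeq start, and is present in 11.2% of all promoters. In the GENCODE annotation Cd38 starts at 43868553, before the whole window, so this position holds for the RefSeq start only. GGAATG was found on the minus strand of the Ptprk window, at position -65, and is present in 14.7% of all promoters. The 6 other windows held none of these motifs, which occur in 9.05% (TGATAA), 3.89% (CCGGAAGT), 5.2% (TGAGTCA) and 8.32% (TATAAA) of all promoters.

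Library totals lay between 34358101 and 72503142 estimated counts, and 3 counts correspond to 0.0410 to 0.0855 CPM, counts scaled to library size with TMM, edgeR's correction for library composition. A count was found for 15117 to 16333 genes in aged+Ri, 15024 to 17987 in aged and 20129 to 21213 in young libraries. Of the genes that define the sort, Ly6a (Sca1) lay between 222 and 717 CPM and Kit between 87.3 and 655 CPM over the 9 libraries, while Cd34 reached 95.7 CPM and Flt3 21.8 CPM at most. Markers of other cells were also counted: the summed B cell markers lay between 67.0 and 136 CPM in aged+Ri, 60.9 and 661 CPM in aged and 183 and 13523 CPM in young libraries, with the highest value in young 1, where the light chain gene Iglc2 alone was at 13368 CPM. Neutrophil markers summed to 39.3 to 70.4 CPM in aged+Ri, 244 to 8373 CPM in aged and 770.3 to 3080 CPM in young libraries. Erythroid markers summed to 732 to 1534 CPM in aged+Ri, 24.1 to 80.0 CPM in aged and 82.8 to 777 CPM in young libraries, with the globin genes Hba-a1 and Hba-a2 the most abundant of them in each aged+Ri library. T and NK cell markers summed to 3.57 to 31.9 CPM in aged+Ri, 106 to 299 CPM in aged and 81.4 to 200.5 CPM in young libraries, and mast cell and basophil markers to 0 to 5.90, 23.7 to 275 and 3.09 to 103 CPM. The part of these cells in the values below was not tested, and in bulk RNA fewer cells of a type and less RNA per cell cannot be told apart.

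Per kilobase of annotated exon, Cd9 was the most abundant of the 10 transcripts in every group, at a mean of 1282 CPM per kb in aged+Ri, 817 in aged and 365 in young libraries. Its lowest library stood above the highest library of the next gene in each group. Jam2 came next in aged+Ri libraries at 61.7 CPM per kb, and stood lower in the order in aged libraries at 19.1 and in young libraries at 9.75. Cd74 came after Jam2 in aged+Ri libraries at 49.8 CPM per kb, and directly after Cd9 in aged libraries at 198 and in young libraries at 26.9. Gpr183, Neo1 and Alcam filled the middle of the order, between 7.81 and 33.6 CPM per kb. Selp stood just below these in all 3 groups, at 9.77, 7.90 and 2.72 CPM per kb in aged+Ri, aged and young libraries. Tm4sf1, Cd38 and Ptprk were the least abundant, with Ptprk last in every group at 0.934, 1.11 and 0.216 CPM per kb. Apart from Cd9 and the next gene, the library ranges of neighbours in this order overlapped except between Neo1 and Alcam in aged+Ri and between Jam2 and Alcam in aged libraries.

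In aged against young LT-HSCs most of the 10 genes had a higher fitted level, but none passed the threshold of the main test. Log2 changes were above 0 for 9 of the 10 genes, all but Alcam, with a median of 1.43, against a median of -0.13 and 45.3% above 0 among the 15127 genes tested. With edgeR's quasi-likelihood F-test and Benjamini-Hochberg adjustment over all tested genes, 0 of the 10 passed an adjusted p of 0.05, where 0.0331% of all genes passed as higher and 0% as lower. At an unadjusted p under 0.05, 6 were higher (Selp, Jam2, Cd9, Gpr183, Ptprk and Cd74) and 0 lower, where 6.09% of all genes were higher and 10.1% lower. In 6 genes (Selp, Jam2, Cd9, Gpr183, Cd38 and Ptprk) every aged library stood above every young library, as in 8.58% of all genes, and in 0 genes every aged library stood below, as in 16.1%. DESeq2 called Cd9, 1 of the 10, as higher and 0 as lower, where it called 2.51% of all genes as higher and 2.41% as lower. With limma-voom, 0 of the 10 were called, where 0.0595% of all genes were called higher and 0.0595% lower. The young libraries were not alike: young 3 was lowest of all 9 libraries for 6 of the 10 genes, and the median change was 1.24 without it and 1.88 without young 2.

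With Rhosin the 10 genes showed mixed directions. Between aged+Ri and aged cells, 7 log2 changes were above 0 and 3 below (Cd38, Ptprk and Cd74), with a median of 0.20, against -0.06 and 47.2% above 0 among all genes. No gene of the table passed edgeR's threshold in this comparison, neither higher (0%) nor lower (0%), so 0 of the 10 did. At an unadjusted p under 0.05, 2 were higher (Jam2 and Cd9) and 0 lower, where 4.24% of all genes were higher and 4.89% lower. Jam2 was the 1 gene with every aged+Ri library above every aged library, as in 7.87% of all genes, and Cd38 the 1 gene with every aged+Ri library below, as in 8.66%. DESeq2 called Jam2, 1 of the 10, as higher and 0 as lower, where it called 0.912% of all genes as higher and 1.2% as lower. With limma-voom, 0 of the 10 were called, where 0.178% of all genes were called higher and 0.185% lower. The direction of the median was not stable: it was -0.071 with the sequencing batch as a covariate and -0.088 without aged+Ri 3.

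Aged cells with Rhosin differed from young cells most clearly in Jam2 and Cd9, which both rose. They are 2 of the 10 genes, where 0.959% of all genes passed edgeR's threshold as higher, and 0 of the 10 fell, where 0.489% did. Log2 changes were above 0 for 9 of the 10, all but Cd38, with a median of 1.69, against -0.24 and 42.6% above 0 among all genes. At an unadjusted p under 0.05, 5 were higher (Selp, Jam2, Cd9, Gpr183 and Ptprk), and 0 lower, where 9.06% of all genes were higher and 14.4% lower. In 5 genes (Jam2, Cd9, Neo1, Gpr183 and Ptprk) every aged+Ri library stood above every young library, as in 12.4% of all genes, and in 0 genes below, as in 19.9%. DESeq2 called 4 of the 10 as higher (Jam2, Cd9, Selp and Gpr183) and 0 as lower, where it called 5.33% of all genes as higher and 6.98% as lower. With limma-voom, Jam2 and Cd9 were called higher and 0 lower, where 2.1% of all genes were called higher and 2.04% lower. Both calls rest on aged+Ri 3: without it 0 of the 10 passed, with 9 calls over the whole table against 219 with it. This comparison differs in age and in Rhosin. Young 2 and young 3 also hold transcripts of the Y-linked gene Ddx3y, so for those libraries it differs in sex too. The comparison shares libraries with both others, so the 3 sets of values are given side by side and are not counted as separate support.

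**Figure D1:**
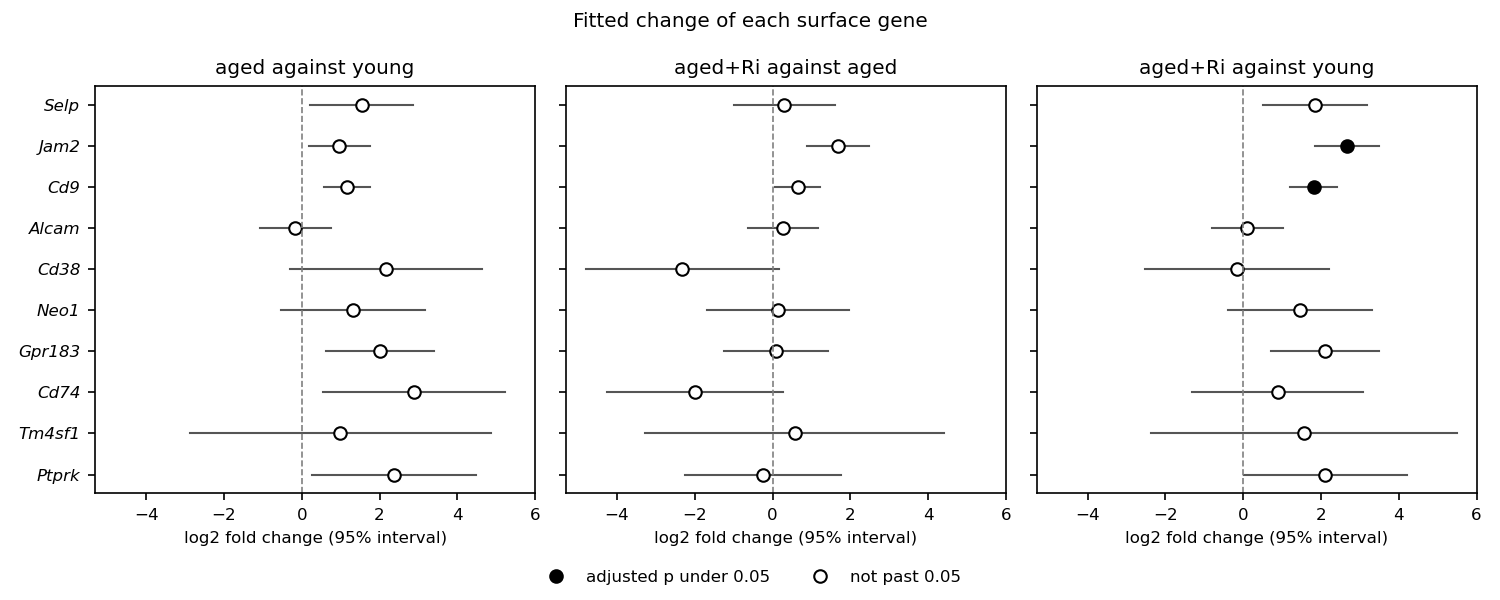
Log2 change of each of the 10 genes in the 3 comparisons, with the group named first over the group named second on the horizontal axis, points for the edgeR estimate and bars for its 95% interval. Filled points, Jam2 and Cd9 in aged+Ri against young, have an adjusted p under 0.05, and the widest intervals are those of Tm4sf1.

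Among the adhesion molecules, Selp encodes P-selectin, which binds PSGL-1 on leukocytes and is best known from activated platelets and endothelium. It lies at 164115264 to 164150026 on chromosome 1 (+ strand; gene positions are those of GRCm38 in GENCODE). Selp was at 13.8, 41.3 and 74.4 CPM in aged+Ri libraries, 46.8, 28.1 and 29.7 CPM in aged libraries and 13.7, 14.7 and 7.64 CPM in young libraries. All aged libraries were above all young ones, whereas aged+Ri 1 was at the level of the young libraries and aged+Ri 3 was the highest of all 9. Aged against young cells gave a log2 change of 1.54 ± 0.61 (SE; 95% interval 0.22 to 2.86; edgeR adjusted p = 0.254). It was 0.31 ± 0.60 (-0.98 to 1.59; adjusted p = 0.954) in aged+Ri against aged cells and 1.84 ± 0.62 (0.52 to 3.17; adjusted p = 0.113) in aged+Ri against young cells. The aged+Ri libraries spanned nearly the whole range of the 9, and the interval of the Rhosin difference includes both a loss and a gain. Selp shares exon bases with the noncoding genes Gm16587 (186 bases) and Gm16548 (438 bases) on the opposite strand, and the sources used here do not say whether the counting used strand.

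P-selectin is stored in megakaryocytes and platelets, so their markers are given beside it. All 12 megakaryocyte and platelet markers were in the table, and they summed to 250.4 to 600.5 CPM in aged+Ri, 855 to 1052 CPM in aged and 418 to 997 CPM in young libraries. Between 3 and 5 of the 12 were at 0 in aged+Ri libraries, among them Gp9 and Treml1 in all 3, against 1 to 3 in aged and 0 or 1 in young libraries. Of all genes, too, fewer had a count in aged+Ri (15117 to 16333) and aged (15024 to 17987) than in young libraries (20129 to 21213). The part of megakaryocytes and platelets in the Selp values was not tested. Of 13 tested partner genes of P-selectin (ligands, enzymes that build them, and platelet and leukocyte receptors), edgeR called 0 in any comparison. Their median log2 change was 0.15 in aged against young, -0.13 in aged+Ri against aged and 0.03 in aged+Ri against young cells. Gp1ba, a platelet receptor for P-selectin, averaged 0.0738 ± 0.0868 CPM in aged+Ri, 3.40 ± 1.73 CPM in aged and 6.76 ± 3.48 CPM in young libraries (SD, n = 3 each). Gp1ba was lower in every aged+Ri library than in every young one, as were 19.9% of all genes. The platelet markers Vwf, Clec1b and Itgb3 overlapped between these groups, as did Selp.

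Jam2 encodes junctional adhesion molecule B, an immunoglobulin-family protein that binds JAM-C and the integrin VLA-4. It lies at 84774123 to 84825928 on chromosome 16 (+ strand). Jam2 was at 234, 377 and 509 CPM in aged+Ri libraries, 92.9, 146 and 108 CPM in aged libraries and 74.1, 62.2 and 40.4 CPM in young libraries. The 3 groups did not overlap: every aged+Ri library was above every aged one, and every aged library above every young one. Jam2 rose 6.33-fold in aged+Ri against young cells, a log2 change of 2.66 ± 0.38 (95% interval 1.84 to 3.48; edgeR adjusted p = 0.0116). Between aged+Ri and aged cells its log2 change was 1.69 ± 0.37 (0.90 to 2.49; adjusted p = 0.228), and in aged against young cells 0.97 ± 0.36 (0.19 to 1.75; adjusted p = 0.239). Without aged+Ri 3 the log2 change against young cells was 2.30 with an adjusted p of 0.0964, and over all 19 alternatives the adjusted p lay between 1.36e-07 and 0.0964.

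Of 12 tested junction genes and JAM partners, 0 passed in any comparison, and their median log2 change was 0.12 in aged against young, -0.05 in aged+Ri against aged and 0.19 in aged+Ri against young cells. Esam, an endothelial-type adhesion protein also used as a stem cell marker, averaged 61.4 ± 14.6 CPM in aged+Ri, 73.1 ± 35.6 CPM in aged and 31.8 ± 9.38 CPM in young libraries. Afdn, a cytoplasmic adaptor of junctions, averaged 113 ± 31.8 CPM in aged+Ri, 54.3 ± 18.7 CPM in aged and 42.6 ± 8.91 CPM in young libraries. Itga4, the integrin alpha subunit of VLA-4, was at 27.0 ± 14.7 CPM in aged+Ri, 56.0 ± 12.6 CPM in aged and 101 ± 28.0 CPM in young libraries, an order of means opposite to that of Jam2. Jam2 is also known from endothelium, and 10 of 10 endothelial and stromal markers summed to 39.9 to 121 CPM in aged+Ri, 116 to 151 CPM in aged and 90.5 to 149.5 CPM in young libraries. Cdh5, the defining cadherin of endothelium, was at most 2.07 CPM in any library, whereas the highest library reached 54.2 CPM for Kdr, 52.0 CPM for Emcn, 42.7 CPM for Pecam1 and 28.0 CPM for Tie1. Their part in the Jam2 values was not tested.

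Alcam (CD166), an immunoglobulin-family adhesion molecule that binds CD6 and itself, lies at 52248996 to 52454074 on chromosome 16 (- strand). It was at 107, 77.9 and 64.5 CPM in aged+Ri libraries, 89.5, 64.4 and 52.9 CPM in aged libraries and 77.1, 115 and 40.5 CPM in young libraries. The 3 groups overlapped fully, since the highest and the lowest value were both in young libraries. For aged against young cells the log2 change was -0.17 ± 0.42 (95% interval -1.07 to 0.74; edgeR adjusted p = 0.889). It was 0.27 ± 0.42 (-0.64 to 1.18; adjusted p = 0.939) in aged+Ri against aged cells and 0.10 ± 0.42 (-0.81 to 1.01; adjusted p = 0.909) in aged+Ri against young cells. A gain of Alcam with age of more than 0.74 on the log2 scale lies outside the interval. Of 8 tested ligands and relatives, 0 passed in any comparison. They had medians of 0.12 in aged against young, -0.80 in aged+Ri against aged and -2.80 in aged+Ri against young cells. In the last comparison 2 of the 8 were above 0 and 6 below. Bcam and Mcam averaged 0.00936 and 0.00941 CPM in aged+Ri, below the level of 3 counts, and 0.586 and 0.398 CPM in young libraries. Nrcam averaged 0.0281 ± 0.0486 CPM in aged+Ri and 7.06 ± 7.48 CPM in young libraries. Icam2, an integrin ligand, averaged 25.7 ± 7.25 CPM in aged+Ri, 49.2 ± 16.5 CPM in aged and 16.0 ± 2.13 CPM in young libraries.

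**Figure D2:**
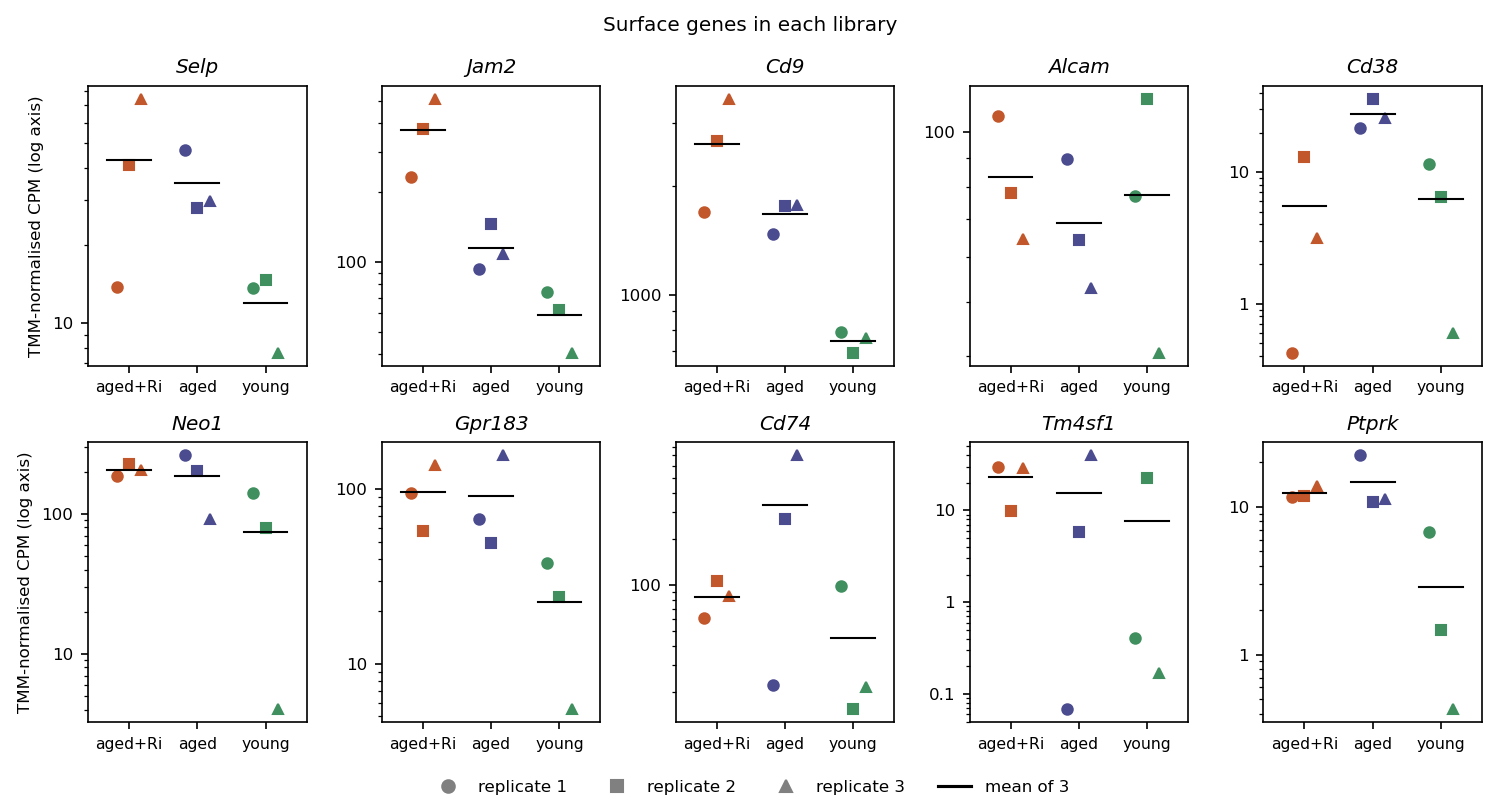
TMM-normalised CPM (vertical log axis) of each gene in every library, with groups aged+Ri, aged and young from left to right, symbols for replicates and lines for means of 3. Jam2 shows 3 groups that do not overlap, Cd38 is highest in all aged libraries, and Alcam overlaps throughout.

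Cd9 encodes a tetraspanin, a membrane organiser of platelets, megakaryocytes and stem cells that gathers integrins and other proteins into microdomains. It lies at 125460266 to 125494791 on chromosome 6 (- strand). Cd9 was at 1694, 2667 and 3498 CPM in aged+Ri libraries, 1477, 1758 and 1777 CPM in aged libraries and 789.7, 690.2 and 761 CPM in young libraries. Every library of aged mice, with or without Rhosin, was above every young library, and the young libraries lay close together. Cd9 rose 3.51-fold in aged+Ri against young cells, a log2 change of 1.81 ± 0.28 (95% interval 1.21 to 2.41; edgeR adjusted p = 0.0160). Aged against young cells gave a log2 change of 1.16 ± 0.27 (0.57 to 1.75; adjusted p = 0.173), and DESeq2 gave 1.08 with an adjusted p of 0.0359, the lowest of 19 alternatives whose highest was 0.379. Between aged+Ri and aged cells it was 0.65 ± 0.27 (0.06 to 1.23; adjusted p = 0.494), and aged+Ri 1 lay within the aged range. Without aged+Ri 3 the log2 change of aged+Ri against young cells was 1.48 with an adjusted p of 0.0981, and over all 19 alternatives the adjusted p lay between 2.42e-05 and 0.0981.

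The deposited estimates of Cd9 were not whole numbers in 6 of 9 libraries, nor were those of Cd74 in 3, Jam2 in 2 and Cd38 in 1, so the counting may split some reads with other features. Cd9 shares 218 exon bases with Gm26728 on the opposite strand. Megakaryocyte and platelet markers, whose sums stand with Selp above, were also counted, and their part in the Cd9 values was not tested. Of 16 tested tetraspanins and partners, 0 passed in any comparison, and 11 of the 16 were above 0 in aged against young cells with a median of 0.96, while the median was -0.22 in aged+Ri against aged and 0.44 in aged+Ri against young cells. Tspan32, a tetraspanin of blood cells, averaged 84.4 ± 29.1 CPM in aged+Ri, 183 ± 45.6 CPM in aged and 62.0 ± 4.32 CPM in young libraries. Cd81, a tetraspanin that pairs with Cd9, averaged 533 ± 147 CPM in aged+Ri, 374 ± 198 CPM in aged and 181 ± 24.7 CPM in young libraries. Cd63, a tetraspanin of late endosomes and granules, averaged 2937 ± 635 CPM in aged+Ri, 3517 ± 525 CPM in aged and 1921 ± 523 CPM in young libraries. These 3 genes, named for their small p, were among 5 of the 16 that were higher in every aged library than in every young one, against 8.58% of all genes, and 0 of the 16 were lower without overlap. Tspan32 was lower in every aged+Ri library than in every aged one, while the aged+Ri and aged libraries of Cd81 and of Cd63 overlapped.

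Tm4sf1, an L6-family membrane protein of endothelium and tumour cells, lies at 57285611 to 57301988 on chromosome 3 (- strand). It was at 29.6, 9.76 and 29.1 CPM in aged+Ri libraries, 0.0683, 5.75 and 40.1 CPM in aged libraries and 0.404, 22.5 and 0.171 CPM in young libraries. Each of the aged and young groups held libraries with 20 counts or fewer (5 in aged 1, 20 in young 1 and 6 in young 3) beside libraries with many more (318 in aged 2, 2521 in aged 3 and 883 in young 2), and no aged+Ri library was that low. Log2 changes were 0.99 ± 1.76 (95% interval -2.88 to 4.86; edgeR adjusted p = 0.830) in aged against young, 0.58 ± 1.75 (-3.27 to 4.42; adjusted p = 0.976) in aged+Ri against aged and 1.57 ± 1.79 (-2.36 to 5.49; adjusted p = 0.634) in aged+Ri against young cells. These intervals are too wide to give a direction. Of 6 listed relatives and partners only 2, Itga5 and Ddr1, had enough counts to be tested, and 0 passed.

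Neo1 encodes neogenin, a receptor for netrins and for repulsive guidance molecules, and lies at 58874687 to 59036441 on chromosome 9 (- strand). It was at 186, 226 and 204 CPM in aged+Ri libraries, 264, 204 and 92.6 CPM in aged libraries and 141, 79.1 and 4.02 CPM in young libraries. The aged+Ri libraries lay close together and above all young ones, and aged and young libraries overlapped because aged 3 was below young 1. Aged against young cells differed by 1.32 ± 0.84 on the log2 scale (95% interval -0.53 to 3.17; edgeR adjusted p = 0.452) and by 0.76 without young 3, the lowest library, or 2.05 without young 1. It was 0.14 ± 0.83 (-1.68 to 1.96; adjusted p = 0.990) in aged+Ri against aged and 1.46 ± 0.84 (-0.40 to 3.32; adjusted p = 0.318) in aged+Ri against young cells. Of 13 tested ligands and co-receptors, 0 passed in any comparison, with medians of -1.12 in aged against young, 0.30 in aged+Ri against aged and -1.09 in aged+Ri against young cells. Bmpr2, a receptor of the bone morphogenetic proteins with which neogenin co-receptors act, averaged 110.3 ± 28.5 CPM in aged+Ri, 108 ± 31.9 CPM in aged and 235 ± 99.1 CPM in young libraries. Ntn1, the ligand netrin-1, averaged under 1 CPM in each group.

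Gpr183 (EBI2) is a G protein-coupled receptor for oxysterols that guides the migration of immune cells. It lies at 121952551 to 121965195 on chromosome 14 (- strand), within Ubac2 on the other strand, with 0 exon bases shared. It was at 95.5, 58.0 and 137 CPM in aged+Ri libraries, 67.6, 49.3 and 157 CPM in aged libraries and 37.8, 24.3 and 5.50 CPM in young libraries. Every library of aged mice, with or without Rhosin, was above every young library, and aged+Ri and aged libraries covered nearly the same range. Log2 changes were 2.02 ± 0.64 (95% interval 0.63 to 3.41; edgeR adjusted p = 0.206) in aged against young and 2.10 ± 0.65 (0.71 to 3.50; adjusted p = 0.0967) in aged+Ri against young cells. For aged+Ri against aged cells the value was 0.08 ± 0.62 (-1.25 to 1.42; adjusted p = 0.992).

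Of 9 tested enzymes of Gpr183's ligand and G protein signalling genes, 0 passed in any comparison, with medians of -0.44 in aged against young, 0.74 in aged+Ri against aged and 0.07 in aged+Ri against young cells. Cyp7b1, an enzyme of oxysterol synthesis, averaged 2.85 ± 2.95 CPM in aged+Ri, 6.61 ± 4.13 CPM in aged and 0.209 ± 0.0903 CPM in young libraries. The migration receptors Cxcr4 and S1pr1 and the G protein regulator Rgs2 had lower means in aged than in young libraries. Cxcr4, which holds stem cells in the niche, averaged 133 ± 11.5 CPM in aged+Ri, 79.8 ± 19.0 CPM in aged and 185 ± 76.4 CPM in young libraries. S1pr1, the sphingosine phosphate receptor, averaged 164 ± 31.1 CPM in aged+Ri, 79.1 ± 27.4 CPM in aged and 157 ± 36.9 CPM in young libraries. Rgs2 averaged 356 ± 87.9 CPM in aged+Ri, 205 ± 37.8 CPM in aged and 335 ± 130.2 CPM in young libraries. These 3 genes, named for their small p, were among 5 of the 9 in which every aged+Ri library was above every aged one, against 7.87% of all genes, and in 0 of the 9 every one was below.

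Cd38 encodes the main ecto-enzyme that consumes NAD, and lies at 43868553 to 43912375 on chromosome 5 (+ strand). It was at 0.421, 13.1 and 3.16 CPM in aged+Ri libraries, 21.7, 36.2 and 25.8 CPM in aged libraries and 11.6, 6.43 and 0.599 CPM in young libraries. All aged libraries were above all libraries of the other groups, and aged+Ri and young libraries covered the same range. The log2 change was 2.16 ± 1.14 (95% interval -0.30 to 4.63; edgeR adjusted p = 0.358) in aged against young cells. It was -2.32 ± 1.15 (-4.80 to 0.16; adjusted p = 0.582) in aged+Ri against aged and -0.16 ± 1.10 (-2.52 to 2.21; adjusted p = 0.948) in aged+Ri against young cells. No other of the 10 genes was highest in all aged libraries, and the change of aged against young cells was 1.63 without young 3 and 2.89 without young 1.

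Of 12 other genes of NAD metabolism tested, 0 passed in any comparison, with medians of -0.64 in aged against young, -0.32 in aged+Ri against aged and -1.08 in aged+Ri against young cells. Bst1 (CD157), the paralogue of Cd38, averaged 0.0282 ± 0.0489 CPM in aged+Ri, 3.42 ± 2.97 CPM in aged and 42.7 ± 41.4 CPM in young libraries, a different order of means from that of Cd38. Nmnat3, which makes NAD, averaged 57.2 ± 9.22 CPM in aged+Ri, 67.4 ± 5.03 CPM in aged and 32.5 ± 5.54 CPM in young libraries, and both other groups were above young without overlap. Sirt1, a deacetylase that uses NAD, averaged 55.2 ± 10.6 CPM in aged+Ri, 27.7 ± 11.1 CPM in aged and 60.5 ± 39.0 CPM in young libraries.

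Ptprk, a receptor tyrosine phosphatase of cell contacts, lies at 28074820 to 28597397 on chromosome 10 (+ strand). It was at 11.7, 11.8 and 13.9 CPM in aged+Ri libraries, 22.4, 10.8 and 11.3 CPM in aged libraries and 6.71, 1.48 and 0.428 CPM in young libraries. Every library of aged mice was above every young library, and the aged+Ri libraries differed little among themselves. The fitted difference was 2.36 ± 0.98 on the log2 scale (95% interval 0.25 to 4.47; edgeR adjusted p = 0.267) in aged against young cells, 1.85 without young 3 and 3.85 without young 1. It was -0.25 ± 0.93 (-2.26 to 1.76; adjusted p = 0.982) in aged+Ri against aged and 2.11 ± 0.97 (0.02 to 4.20; adjusted p = 0.210) in aged+Ri against young cells. Of 13 tested phosphatases of its class and their substrates, 0 passed in any comparison, with medians of -0.66 in aged against young, 0.03 in aged+Ri against aged and -0.12 in aged+Ri against young cells. Its relative Ptpru averaged 8.88 ± 5.70 CPM in aged+Ri, 6.80 ± 1.75 CPM in aged and 1.41 ± 0.956 CPM in young libraries. Pkp3, a plakophilin of desmosomes, averaged 10.95 ± 3.58 CPM in aged+Ri, 11.9 ± 2.53 CPM in aged and 1.02 ± 0.593 CPM in young libraries. Ptprc (CD45), the phosphatase of all leukocytes, averaged 239 ± 56.7 CPM in aged+Ri, 242 ± 29.2 CPM in aged and 475 ± 179 CPM in young libraries.

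Cd74 encodes the invariant chain of MHC class II, which guides class II molecules to the endosome and also serves as a receptor for the cytokine MIF; it lies on chromosome 18. It was at 60.9, 106 and 84.2 CPM in aged+Ri libraries, 22.4, 271 and 705 CPM in aged libraries and 98.4, 15.5 and 21.6 CPM in young libraries. The aged group held the highest values and also a library at the level of young 3, and young 1 was above aged 1. The log2 change was 2.88 ± 1.05 (95% interval 0.54 to 5.22; edgeR adjusted p = 0.245) in aged against young cells, 1.77 without aged 3 and 4.15 without young 1. It was -1.99 ± 1.02 (-4.25 to 0.27; adjusted p = 0.603) in aged+Ri against aged cells, with 1.42 within sequencing batch 1, -1.51 within batch 2 and -0.84 without aged 3, and 0.89 ± 0.99 (-1.31 to 3.09; adjusted p = 0.625) in aged+Ri against young cells.

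Cd74 is abundant in B cells, macrophages and dendritic cells, so their markers are given by library. The 8 B cell markers in the table, of 10 listed, summed to 136, 67.0 and 116 CPM in aged+Ri, 60.9, 661 and 629 CPM in aged and 13523, 183 and 1456 CPM in young libraries. The 12 macrophage and dendritic cell markers summed to 84.5, 47.8 and 110.2 CPM in aged+Ri, 101, 114 and 512 CPM in aged and 106, 109 and 205 CPM in young libraries. Cd74 was highest in aged 3 and aged 2, which also held the highest B cell sums of the aged group. Young 1 and young 3 had higher B cell sums, at 13523 and 1456 CPM, with Cd74 at 98.4 and 21.6 CPM. Iglc2 alone made up 13368 CPM of the B cell sum of young 1, and Ly6c2, which monocytes carry, 431 CPM of the macrophage and dendritic cell sum of aged 3. Without Iglc2 the B cell markers summed to 12.1, 35.1 and 105 CPM in aged+Ri, 51.3, 464 and 489 CPM in aged and 155, 43.5 and 1291 CPM in young libraries. Without Ly6c2 the macrophage and dendritic cell markers summed to 79.4, 42.1 and 108 CPM in aged+Ri, 73.2, 64.1 and 80.7 CPM in aged and 33.2, 43.5 and 79.5 CPM in young libraries. Their part in the Cd74 values was not tested.

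Of 16 tested class II genes and Cd74 partners, 0 passed in aged against young or in aged+Ri against aged cells, and 1, Cd44, fell in aged+Ri against young cells. Cd44, a hyaluronan receptor that pairs with Cd74, was at 31.1 ± 8.94 CPM in aged+Ri, 57.9 ± 5.54 CPM in aged and 108 ± 9.36 CPM in young libraries (SD, n = 3 each), and the 3 groups did not overlap. Its log2 change was -1.79 ± 0.36 (edgeR adjusted p = 0.0320) in aged+Ri against young cells, a call that was kept in 11 of 19 alternatives. It was lost with only the compared groups fitted, with the batch as a covariate, and without young 1, aged 1, aged 2, aged 3, aged+Ri 1 or aged+Ri 3, and the adjusted p over the 19 lay between 1.94e-07 and 0.148. Between aged+Ri and aged cells 15 of the 16 were below 0, as were 7982 of the 15127 genes tested. The median of the 16 was -1.31, against -0.06 over all genes. H2-Ab1, a class II beta chain, averaged 51.0 ± 3.31 CPM in aged+Ri, 122 ± 94.0 CPM in aged and 27.8 ± 25.1 CPM in young libraries. Rfxank, a subunit of the factor that drives class II promoters, averaged 19.2 ± 2.98 CPM in aged+Ri, 39.4 ± 6.00 CPM in aged and 5.28 ± 3.69 CPM in young libraries, and the 3 groups did not overlap. H2-DMb1, which loads peptides, was at 11.03 ± 11.3 CPM in aged+Ri, 27.3 ± 25.7 CPM in aged and 1.33 ± 1.31 CPM in young libraries. Aged 3 was the highest aged library for H2-Ab1, at 228 CPM, and for H2-DMb1, at 56.4 CPM. The aged+Ri and aged libraries of both genes overlapped.

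**Figure D3:**
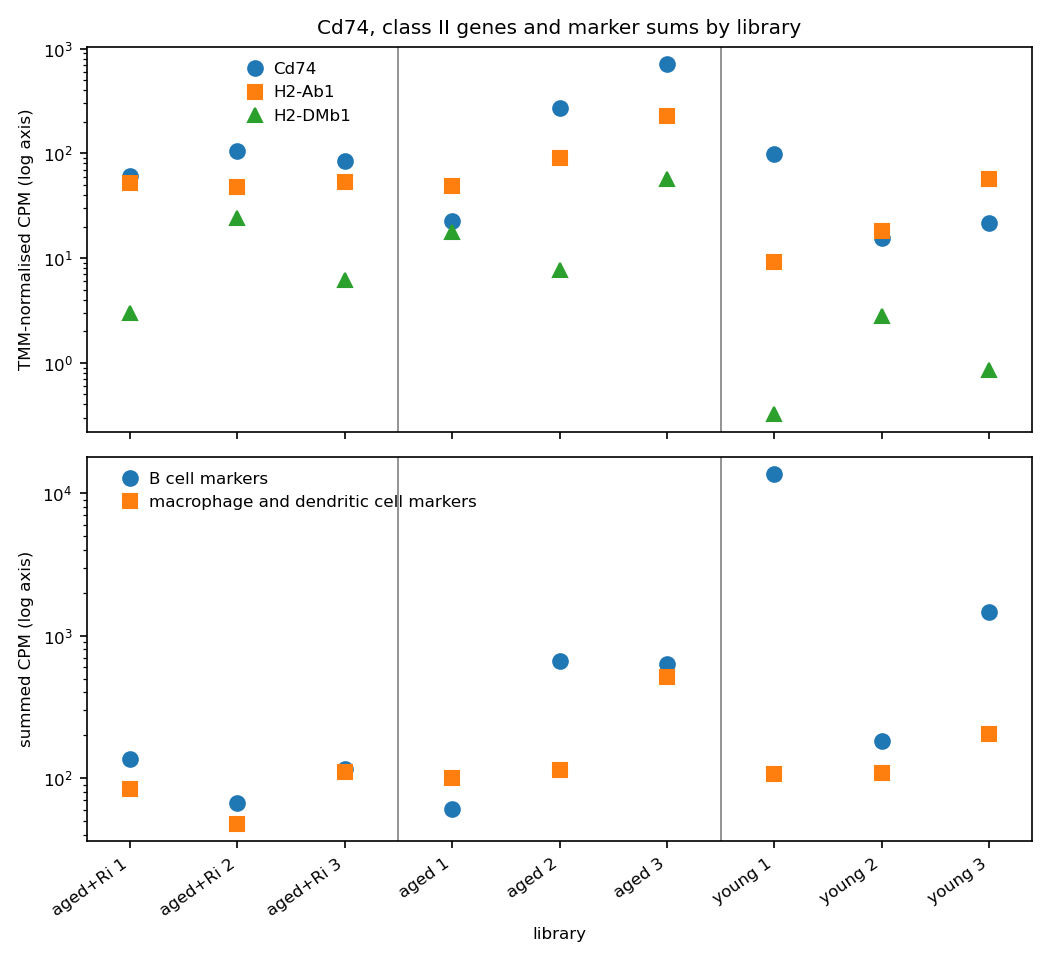
TMM-normalised CPM of Cd74 and the class II genes H2-Ab1 and H2-DMb1 (upper panel, log axis) and summed CPM of B cell and of macrophage and dendritic cell markers (lower panel, log axis) in each library. Cd74 reaches 705 CPM in aged 3, where the macrophage and dendritic cell sum is 512 CPM, 431 CPM of it from Ly6c2.

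Over the 10 lists of partner genes, 114 of 121 listed genes were tested. For aged against young cells 55 were above and 59 below 0, with a median of -0.03, and 0 passed. For aged+Ri against aged cells 47 were above and 67 below 0, with a median of -0.19, and 0 passed. For aged+Ri against young cells 54 were above and 60 below 0, with a median of -0.09, and Cd44 was the 1 that passed. In that order of comparisons, edgeR's unadjusted p was under 0.05 for 14, 7 and 13 of the 114 as higher, where 6.09%, 4.24% and 9.06% of all genes were, and for 12, 13 and 22 as lower, where 10.1%, 4.89% and 14.4% were. DESeq2 called 11, 5 and 23 of the 114 in either direction, beside 744, 320 and 1862 of the 15127 genes, and limma-voom called 0, 1 and 7, beside 18, 55 and 626.

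The libraries of a group differed from each other in the same direction for many of the 10 genes. Young 3 was lowest of the young libraries for 8 of the 10 and young 1 highest for 7. Aged+Ri 1 was lowest of its group for 7, while aged+Ri 3 was highest of its group for 5. In the aged group no library stood at one end so often, with aged 1 lowest for 5 and highest for 4. Young 2 and young 3 hold transcripts of the Y-linked gene Ddx3y, 2577 and 6400 counts, and the remaining 7 libraries 0 or 1. In those 2 young libraries sex and age cannot be told apart. Against aged+Ri cells, sex, age and Rhosin cannot be told apart in them. With young 1, which has 0, as the only young library, the median log2 change of aged against young cells was 1.26, and the value was 1.40 for Selp, 0.70 for Jam2, 1.14 for Cd9, 1.33 for Gpr183, 1.32 for Cd38, 0.46 for Neo1, 1.19 for Ptprk, 1.82 for Cd74, -0.11 for Alcam and 5.29 for Tm4sf1. With 1 young library, this fit assumes that it varies as the libraries of the other groups do.

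By the labels, batch 1 of the sequencing holds aged+Ri 1 and aged 1, batch 2 holds aged+Ri 2, aged+Ri 3, aged 2 and young 2, and batch 3 holds aged 3 and young 3. Young 1 was sequenced in batches 1 and 3 and entered no comparison within a batch. Each such comparison rests on 1 or 2 libraries a group, so it has no test. Within batch 2, 8 of the 10 were higher in aged than in young cells with a median log2 difference of 1.28, and within batch 3, which holds young 3, all 10 were higher with a median of 4.02. Within batch 1, 6 of the 10 were higher in aged+Ri than in aged cells with a median of 0.23, and within batch 2, 8 were, with a median of 0.53. Within batch 2, 8 of the 10 were higher in aged+Ri than in young cells, with a median of 1.96. Selp was -1.73 in aged+Ri against aged cells within batch 1 and 1.03 within batch 2, so its direction differed between batches. The same held for Cd74 (1.42 and -1.51), Neo1 (-0.50 and 0.08) and Ptprk (-0.91 and 0.24). Jam2 was at 1.33 within batch 1 and 1.60 within batch 2, and Cd38 at -4.59 and -2.09, so these kept theirs, as did Cd9 (0.20 and 0.81), Alcam (0.25 and 0.14), Gpr183 (0.49 and 0.98) and Tm4sf1 (5.73 and 1.67).

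**Figure D4:**
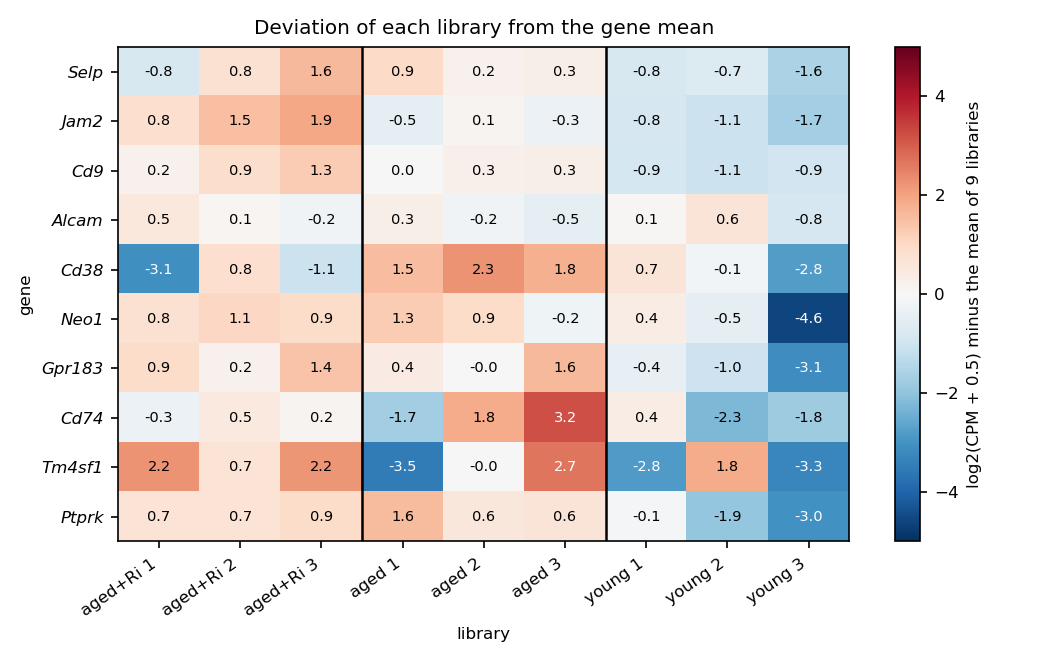
Deviation of each library from the mean of the 9 libraries, on a scale of log2(CPM + 0.5), for the 10 genes (rows) and the libraries of aged+Ri, aged and young cells (columns, separated by lines). Red is above and blue below the mean; young 3 is blue throughout, and Alcam stays closest to its mean.

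Between the 10 genes, the profiles over 9 libraries most alike were those of Jam2 and Cd9, whose log2 CPM, centred on the mean of each gene, differed by a root mean square of 0.52, followed by Selp and Cd9 at 0.54. Over all 45 pairs the median was 1.48, and Cd38 and Tm4sf1 were least alike at 3.10. Among 10613 genes with enough counts, the profile nearest to Jam2 was that of Lpar6, with a difference of 0.34, and it averaged 1222 ± 523 CPM in aged+Ri, 485 ± 60.6 CPM in aged and 293 ± 43.5 CPM in young libraries. Nearest to Cd9 were Acvr1b (0.22) and Phospho2 (0.25). Nearest to Selp were Irak1bp1 (0.39) and Capn10 (0.44), and nearest to Cd38 were Hs1bp3 (0.50) and Dcxr (0.59). Nearest to Neo1 was Pitrm1 (0.29), to Gpr183 Cd320 (0.45), to Ptprk Arhgap28 (0.35) and to Alcam Trim39 (0.19). Cd74 and Tm4sf1 differed most from their nearest genes, Slc17a8 at 0.83 and Kpna2 at 0.93. The difference is not scaled to the spread of a gene, so it is larger for genes that vary more. The SD of log2 CPM over the libraries was 1.78 for Cd74 and 2.54 for Tm4sf1, against 0.47 for Alcam. These values describe likeness over 9 libraries and rest on the same library differences as the levels.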

How the data were processed

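Bulk RNA of LT-HSCs was measured in 9 libraries prepared, per the labels' protocols, from SMART-Seq v4 cDNA with Nextera XT. The table holds estimated counts per gene as deposited by the authors, since 71.6% to 80.9% of the values of a library are whole within 0.005. The submitters' processing notes name STAR 2.7.0, featureCounts, cutadapt 1.18, SAMtools 1.14 and R 4.2.0, with GRCm38. Whether strand was used, and how reads with several hits were counted, is not given in the sources used here.

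Values were first rounded to whole numbers. In edgeR 4.0.16 (R 4.3.3), genes were kept by filterByExpr, scaled by TMM, and a robust quasi-likelihood fit with a mean for each of the 3 groups used all 9 libraries (6 residual degrees of freedom). The 3 comparisons were tested two-sided with Benjamini-Hochberg adjustment over all 15127 genes and a threshold of 0.05. DESeq2 1.42.0 and limma-voom 3.58.1 with sample weights were alternatives, as were other filters and scalings, the compared groups alone, the replicate number as a block, the batch as a covariate, young 1 as the only young library, and each library left out. The steps were tested on simulated data. CPM are TMM-normalised, group values are means ± SD and intervals are 95%. The 3-count limit is a floor in CPM and does not give the counting error of higher values. P-values set the difference between groups against the spread between these libraries.

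All 10 genes are named; of each partner list, those past the threshold and up to 4 with the smallest p could be named. The genes and lists were chosen with earlier results of these data known. Positions are from GENCODE vM21 and promoters from RefSeq; Jam2 and Cd74 promoters were not used here.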

Additional observations from a re-analysis of the deposited data

How the results depend on the processing

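Jam2 passed edgeR's threshold in aged+Ri against young cells in 18 of 19 alternatives and Cd9 in 17 of 19. Of the 10 genes, DESeq2 called 1 in aged against young (Cd9), 1 in aged+Ri against aged (Jam2, log2 change 1.70, adjusted p = 0.00565, up to 0.542 in the other alternatives) and 4 in aged+Ri against young cells (also Selp, 1.78, adjusted p = 0.0319, up to 0.393, and Gpr183, 2.05, adjusted p = 0.0329, up to 0.262). With young 1 as the only young library 1 was called, as Cd9 had an adjusted p of 0.0506 (log2 change 1.77). Leaving out each library in turn, the number called lay between 0 and 0 in aged against young, 0 and 0 in aged+Ri against aged, and 0 and 2 in aged+Ri against young cells. The median log2 change then lay between 1.24 and 1.88, -0.088 and 0.33, and 1.30 and 2.01. The median of aged+Ri against aged cells was -0.071 with the batch as a covariate, and the median of aged against young cells was 4.02 within batch 3. The cause was not tested.

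Log2 changes that turned sign were all among those not past the threshold. Leaving out each library in turn gave, in aged against young cells, -0.47 to 0.23 for Alcam and -1.35 to 5.71 for Tm4sf1. In aged+Ri against aged cells it gave -0.39 to 0.73 for Selp, -0.20 to 0.40 for Neo1, -0.27 to 0.71 for Gpr183 and -0.43 to 0.13 for Ptprk. In aged+Ri against young cells it gave -0.21 to 0.50 for Alcam and -1.79 to 0.50 for Cd38. With the batch as a covariate, aged+Ri against aged cells gave -0.13 for Selp, -0.012 for Alcam and -0.30 for Neo1, and aged+Ri against young cells -0.30 for Alcam. The stricter filter gave -0.010 for Alcam, and young 1 as the only young library -0.20 for Cd74, both in aged+Ri against young cells.

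The labels do not say whether aged and aged+Ri libraries share mice. Deviations of same-numbered libraries from their group means correlated between -0.07 and 0.12, over 0.1 in 3 of 9 pairs. Of 9 libraries, 2 correlated best with their own number. Each mean holds only 3 libraries, so these values cannot decide whether the replicate numbers pair the samples. With the replicate block, 0, 0 and 2 of the 10 genes were called and the medians were 1.62, 0.25 and 1.87, in the order aged against young, aged+Ri against aged and aged+Ri against young. Over all genes, calls in aged+Ri against young cells were 219 with edgeR, 1862 with DESeq2, 626 with limma-voom, 463 with edgeR's newer quasi-likelihood method, 51 with the compared groups alone, 645 with young 1 as the only young library and between 9 (without aged+Ri 3) and 541 (without young 3) leaving out each library. In aged against young cells they were 5 with edgeR, 744 with DESeq2, 18 with limma-voom, 20 with no filter, 21 with the newer method, 1 with the compared groups alone, 292 with young 1 only and between 2 and 64 leaving out each library. In aged+Ri against aged cells the same counts were 0, 320, 55, 11, 5, 26, 25 and between 0 and 4. The partner count and the Cd44 values were added after the data were seen. At 3 libraries a group, the wide intervals of Tm4sf1, Cd38 and Cd74 limit any statement on them.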
